A study of Mus musculus with 23 samples.

Results

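The 10 genes described here are Notch pathway genes and transcription factors that set the secretory fate of intestinal epithelial cells, and they were taken by symbol from the 55449 genes of the deposited table. They are the receptor Notch1, the ligands Dll1, Dll4 and Jag1, the Hes family genes Hes1 and Hes6, and the fate factors Atoh1, Spdef, Gfi1 and Neurog3. All 10 were found in the table. Colon RNA came from male Cdx2Apcf/w mice on the C57BL/6 background, aged 6 to 8 weeks at the start. They carry 1 floxed Apc allele and a Cre driven by the Cdx2 promoter. Apc loss thus arises in cells in which that promoter is active. All mice were fed a 60% high-fat diet (HFD), and per the methods of the study they drank antibiotics before colonization. Each was colonized with 1 of 2 bacteria. BF BSHlow was B. fragilis 638R with an empty vector. BF BSHhigh was the same strain with that vector carrying a bsh gene taken from another B. fragilis strain. BSH, bile salt hydrolase, is the bacterial enzyme that releases bile acids from their conjugates. After 12 weeks of colonization there were 4 libraries of BF BSHlow non-tumor tissues, 4 of BF BSHhigh non-tumor tissues, 4 of BF BSHlow tumors and 3 of BF BSHhigh tumors, the last named a, b and c because their columns carry no names of their own. After 2 weeks there were 4 libraries of normal colon in each group.

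Notch is a cell-contact pathway: a ligand of the Delta or Jagged family on one cell binds a Notch receptor on its neighbour, the receptor is cut, and its intracellular part joins RBPJ in the nucleus to switch on genes such as Hes1. In the intestine HES1 represses Atoh1, the factor that commits a progenitor to the secretory lineages, so that cells with active Notch become absorptive and cells that escape it become goblet, enteroendocrine or tuft cells. Downstream of ATOH1, SPDEF and GFI1 act in goblet cells and NEUROG3 in enteroendocrine cells, and DLL1 and DLL4 are the ligands by which secretory cells signal to their neighbours.

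In GRCm38, with the GENCODE M21 annotation, all members are protein-coding genes. Atoh1 is a gene without introns at chr6:64729125-64731245 on the plus strand, Spdef lies at chr17:27714352-27728955 on the minus strand, Gfi1 at chr5:107716657-107726036 on the minus strand and Neurog3 at chr10:62133090-62134763 on the plus strand. Hes1 lies at chr16:30064384-30067796 on the plus strand and Hes6 at chr1:91411483-91414038 on the minus strand. Dll4 at chr2:119325784-119335962 is on the plus strand, and Dll1 at chr17:15367354-15376872, Jag1 at chr2:137081456-137116644 and Notch1 at chr2:26457903-26516663 are on the minus strand. The values are sums over all transcripts of a gene.

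Library totals were between 12401388 and 17903008 expected counts. Values are CPM, each gene's share of the library's counts, scaled over all 23 libraries, and a gene was called where the Benjamini-Hochberg adjusted p over all genes tested was under 0.05 and the absolute log2 fold change was over 1, in the quasi-likelihood test of edgeR. Axin2, a WNT target, checked the tumor labels: it was between 190 and 355 CPM in the tumor libraries and between 16.3 and 31.4 CPM in all the others. Lgr5, an intestinal stem cell marker, was higher in tumors by 2.78 ± 0.42 (log2, SE; adjusted p = 4.53e-05) in BF BSHlow mice and by 2.93 ± 0.43 (adjusted p = 6.44e-05) in BF BSHhigh mice. The libraries are whole tissue, in which fewer cells of a type and less RNA per cell cannot be told apart.

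Levels per kilobase of exonic sequence set genes against each other on an approximate scale. The length is the union of a gene's annotated exons, which can exceed that of its transcripts. On this scale Hes1, Hes6, Atoh1 and Spdef stood above the other members in every normal and non-tumor group. In BF BSHlow non-tumor tissues Hes1 was at 35.1 ± 6.86 CPM per kb (SD, n = 4), Hes6 at 28.7 ± 1.05, Atoh1 at 20.9 ± 3.77 and Spdef at 15.3 ± 1.97. The ranges of Hes1 and Hes6 overlapped, and those of Hes6, Atoh1 and Spdef did not. Dll4 (4.03 ± 0.953), Dll1 (3.34 ± 1.12), Jag1 (2.33 ± 0.513), Notch1 (2.10 ± 0.444) and Gfi1 (1.82 ± 0.506) followed, each overlapping the next, and Neurog3 was lowest with 0.472 ± 0.102. In BF BSHlow tumors the order was different. Hes6 led with 138 ± 7.03 CPM per kb, Hes1 followed with 26.1 ± 4.65 and Dll4 with 8.34 ± 2.65, while Spdef was at 0.660 ± 0.233, Gfi1 at 0.504 ± 0.164 and Atoh1 at 0.428 ± 0.306, 3 members whose ranges ran into each other.

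**Figure D1:**
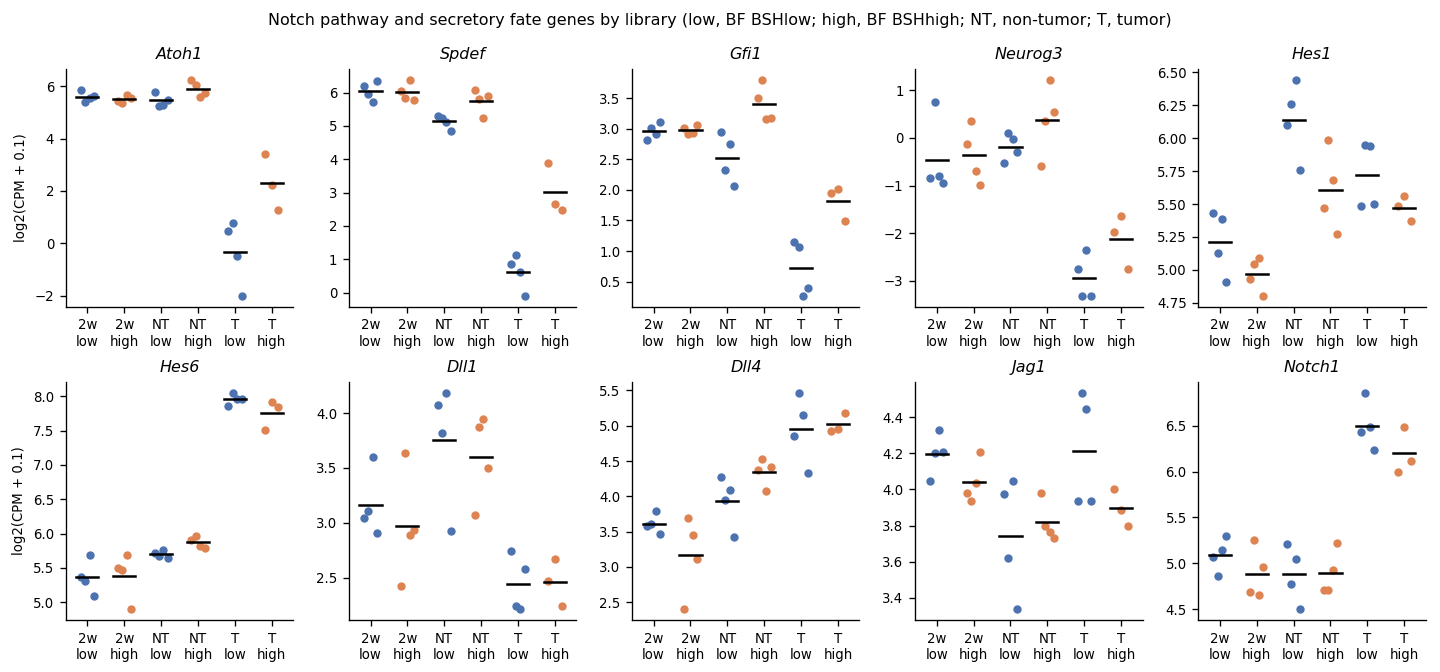
Level of each member in each library as log2(CPM + 0.1), with 1 point per library and a line at the group mean of the points; 2w is normal colon after 2 weeks, NT non-tumor and T tumor tissue after 12 weeks. Atoh1, Spdef, Gfi1 and Neurog3 sit lowest in tumors, Hes6 and Notch1 sit highest there, and vertical axes differ between panels.

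Tumor and non-tumor tissues of the same colonization group were compared to see which members move with tumor growth. The 4 secretory fate factors and the ligand Dll1 fell in tumors of both colonization groups, Hes6 and Notch1 rose in both, and Dll4 passed both limits in BF BSHlow mice. For Dll4 the difference between the colonization groups was -0.37 ± 0.31 (log2, SE; adjusted p = 0.807). In BF BSHlow mice 3 members were higher and 5 lower, where 16.7% and 19.5% of 16455 genes were called. In BF BSHhigh mice 2 were higher and 5 lower, against 14.6% and 14.8%. The median log2 fold change of the members was -0.92 in BF BSHlow and -0.68 in BF BSHhigh mice, and that of all genes was 0.04 in both.

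Atoh1, the bHLH factor at the head of the secretory lineages, had 55.5, 38.0, 39.3 and 44.7 CPM in the BF BSHlow non-tumor libraries and 1.28, 1.59, 0.620 and 0.147 CPM in the BF BSHlow tumors. The BF BSHhigh non-tumor libraries had 76.3, 65.7, 48.7 and 53.4 CPM, and tumors a, b and c had 10.6, 4.60 and 2.29 CPM. No tumor reached the level of a non-tumor library in either group. The log2 fold change was -5.62 ± 0.51 (SE; adjusted p = 4.05e-07), 49.3-fold lower, in BF BSHlow mice and -3.40 ± 0.48 (adjusted p = 4.53e-05), 10.6-fold lower, in BF BSHhigh mice. Without tumor a the latter was -4.15.

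Spdef, the ETS factor of goblet cell maturation, had 39.4, 37.6, 35.0 and 29.0 CPM in BF BSHlow non-tumor tissues and 1.72, 2.10, 1.43 and 0.831 CPM in BF BSHlow tumors. In the BF BSHhigh mice it had 67.2, 56.3, 37.7 and 59.7 CPM in non-tumor tissues and 14.8, 6.16 and 5.44 CPM in tumors a, b and c. The tissues did not overlap in either group. The log2 fold change was -4.55 ± 0.35 (adjusted p = 8.83e-08) in BF BSHlow and -2.66 ± 0.33 (adjusted p = 1.66e-05) in BF BSHhigh mice. Without tumor a the latter was -3.26.

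Gfi1, a zinc finger repressor that acts with ATOH1 in the goblet and Paneth lineages and is also used by blood cells, had 7.64, 4.93, 6.61 and 4.07 CPM in BF BSHlow non-tumor tissues and 2.11, 2.00, 1.10 and 1.22 CPM in the tumors. It had 11.3, 13.9, 8.85 and 8.91 CPM in BF BSHhigh non-tumor tissues and 3.78, 3.93 and 2.72 CPM in tumors a, b and c. Its fall was smaller than that of Atoh1 and Spdef, with a log2 fold change of -1.86 ± 0.28 (adjusted p = 4.49e-05) in BF BSHlow and -1.63 ± 0.30 (adjusted p = 0.000361) in BF BSHhigh mice, and no tumor overlapped the non-tumor libraries of its group. The sum of 6 immune markers was between 40.2 and 163 CPM in BF BSHlow non-tumor tissues and between 61.6 and 155 CPM in the tumors, and its part in the result was not tested. A noncoding gene on the other strand shares 101 exonic bases with Gfi1.

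Neurog3, which starts the enteroendocrine lineage, was close to the floor: the BF BSHlow tumors held 1, 0, 2 and 0 counts and tumors a, b and c of BF BSHhigh held 3, 5 and 1, against 8 to 17 counts in BF BSHlow and 9 to 37 in BF BSHhigh non-tumor libraries. With 49 counts in the BF BSHlow non-tumor libraries and 3 in the tumors, the summed level was 21.7 times higher in non-tumor tissue, with an exact 95% interval of 7.01 to 109. In BF BSHhigh mice, 83 against 9 counts gave a ratio of 9.34 with an interval of 4.69 to 21.1. These intervals cover counting error only. The fitted changes of Neurog3 were past both limits in both groups (adjusted p = 0.000133 and 0.000966), and at so few counts their size depends on the prior count. Without tumor replicate 3 the fitted value in BF BSHlow mice moved from -4.21 to -5.10. Neurog3 shares 273 exonic bases with the protein-coding gene Fam241b on the other strand.

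Promoters of Atoh1 and Spdef, which fell, and of Hes6 and Dll4, which rose, are shown with matches to 2 short motifs, because RBPJ and the HES proteins are the nuclear end of the pathway. Each sequence is the RefSeq GRCm38.p6 window from 250 bases before to 50 after a gene start, 5′ to 3′, and 9 of the 10 members have such an entry, in 12 windows. Capitals mark TGGGAA, the core bound by RBPJ, and CACNAG, the N-box bound by HES repressors, on either strand. Of 32851 such mouse promoters, 25.6% hold the RBPJ core and 42.5% the N-box, so that a match is common. The windows are chr6:64728875-64729174, plus strand, for Atoh1, chr17:27728902-27729201, minus strand, for Spdef, chr1:91413173-91413472, minus strand, for the Hes6 start that lies inside the gene, and chr2:119325534-119325833, plus strand, for Dll4.
Atoh1: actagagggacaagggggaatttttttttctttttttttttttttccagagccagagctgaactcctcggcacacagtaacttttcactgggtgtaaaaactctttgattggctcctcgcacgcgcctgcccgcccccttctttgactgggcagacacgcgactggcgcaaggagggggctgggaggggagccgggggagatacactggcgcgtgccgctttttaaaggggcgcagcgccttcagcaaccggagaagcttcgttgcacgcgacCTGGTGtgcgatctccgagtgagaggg
Spdef: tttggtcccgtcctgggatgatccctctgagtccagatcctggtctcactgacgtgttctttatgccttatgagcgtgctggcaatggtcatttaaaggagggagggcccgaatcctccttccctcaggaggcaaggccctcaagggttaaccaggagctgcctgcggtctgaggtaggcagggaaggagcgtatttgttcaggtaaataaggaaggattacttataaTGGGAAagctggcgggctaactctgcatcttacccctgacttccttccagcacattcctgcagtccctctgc
Hes6: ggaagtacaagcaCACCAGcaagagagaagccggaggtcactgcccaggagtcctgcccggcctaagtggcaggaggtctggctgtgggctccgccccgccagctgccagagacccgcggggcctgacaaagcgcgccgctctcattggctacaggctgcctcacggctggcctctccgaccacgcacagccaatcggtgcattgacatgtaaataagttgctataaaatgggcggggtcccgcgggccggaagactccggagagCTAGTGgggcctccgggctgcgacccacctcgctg
Dll4: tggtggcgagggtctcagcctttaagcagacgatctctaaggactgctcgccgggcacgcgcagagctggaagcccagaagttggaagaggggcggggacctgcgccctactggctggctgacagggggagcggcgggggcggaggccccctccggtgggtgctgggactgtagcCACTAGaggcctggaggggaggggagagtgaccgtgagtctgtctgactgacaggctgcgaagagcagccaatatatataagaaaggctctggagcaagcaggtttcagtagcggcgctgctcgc
In these windows Atoh1 holds 1 N-box and no RBPJ core, Spdef 1 RBPJ core and no N-box, Hes6 2 N-boxes and Dll4 1 N-box. The other Hes6 window, at the annotated start of the gene, holds neither motif. Of the windows not printed, those of Gfi1, Neurog3 and Jag1 and 1 of Dll1 hold neither motif as well. The other Dll1 window holds 1 N-box and that of Notch1 holds 3. The Atoh1 match lies 23 bases past its start and the Spdef match 22 bases before it.

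Hes1 and Hes6, the Hes family members, went apart. Hes1, the repressor that Notch switches on, had 68.5, 76.6, 87.0 and 53.9 CPM in BF BSHlow non-tumor tissues and 44.7, 61.6, 61.2 and 45.2 CPM in the tumors. In BF BSHhigh mice it had 44.2, 63.3, 51.3 and 38.6 CPM in non-tumor tissues and 44.6, 47.1 and 41.4 CPM in tumors a, b and c. Tumor and non-tumor libraries overlapped in both groups. The difference was -0.44 ± 0.17 (log2, SE; adjusted p = 0.0295) in BF BSHlow and -0.16 ± 0.18 (adjusted p = 0.461) in BF BSHhigh mice, within the fold limit in both, and 2 SE either side of the latter spans -0.52 to 0.20.

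Hes6, which is unlike Hes1 in that it is turned on by proneural bHLH factors and opposes HES1, had 52.6, 50.8, 54.2 and 50 CPM in BF BSHlow non-tumor tissues and 233, 265, 249 and 250 CPM in the tumors. In the BF BSHhigh mice it had 59.8, 62.5, 56.2 and 55.2 CPM in non-tumor tissues and 182, 241 and 229 CPM in tumors a, b and c. The tumors stood far above every non-tumor library. The log2 fold change was 2.25 ± 0.09 (adjusted p = 2.28e-09) in BF BSHlow and 1.89 ± 0.09 (adjusted p = 1.72e-08) in BF BSHhigh mice, with the smallest error of any member.

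The receptor Notch1 had 36.8, 27.3, 33.0 and 22.5 CPM in BF BSHlow non-tumor tissues and 85.9, 116, 89.3 and 75.5 CPM in the tumors. In BF BSHhigh mice it had 26.1, 26.0, 30.2 and 37.3 CPM in non-tumor tissues and 63.8, 89.7 and 69.3 CPM in tumors a, b and c. All tumors were above all non-tumor libraries. The log2 fold change was 1.60 ± 0.18 (adjusted p = 2.60e-06) in BF BSHlow and 1.31 ± 0.19 (adjusted p = 4.72e-05) in BF BSHhigh mice. Exons of noncoding genes on the other strand overlap Notch1 over 1068 and 414 bases.

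Among the ligands, Dll1 fell and Dll4 rose. Dll1, carried by secretory progenitors, had 16.8, 14, 18.1 and 7.49 CPM in BF BSHlow non-tumor tissues and 6.58, 4.62, 4.53 and 5.87 CPM in the tumors. It had 8.31, 14.6, 15.3 and 11.2 CPM in BF BSHhigh non-tumor tissues and 5.43, 6.25 and 4.63 CPM in tumors a, b and c. The tissues did not overlap, and the log2 fold change was -1.39 ± 0.27 (adjusted p = 0.000367) and -1.19 ± 0.29 (adjusted p = 0.00318). A long noncoding gene shares 867 bases with Dll1 on the other strand.

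Dll4, also the ligand of sprouting vessels, had 19.3, 15.4, 16.9 and 10.6 CPM in BF BSHlow non-tumor tissues and 28.7, 44.1, 35.5 and 20.1 CPM in the tumors, which were all higher. In BF BSHhigh mice it had 20.6, 22.9, 16.7 and 21.3 CPM in non-tumor tissues and 30.2, 30.9 and 36.3 CPM in tumors a, b and c. The log2 fold change was 1.03 ± 0.21 (adjusted p = 0.000637) in BF BSHlow mice, just over the fold limit, and 0.66 ± 0.22 (adjusted p = 0.0205) in BF BSHhigh mice. A noncoding gene on the other strand shares 214 exonic bases with Dll4. Without non-tumor replicate 4, tumor replicate 2 or tumor replicate 3, the value in BF BSHlow mice was 0.90, 0.83 or 0.97, under the limit. The summed level of 7 endothelial markers moved in the same direction, from between 81.5 and 131 CPM in BF BSHlow non-tumor tissues to between 201 and 233 CPM in the tumors, with 3 of the 7 called higher, Cdh5 most (2.25 ± 0.25, adjusted p = 2.71e-06). Its part in the values of Dll4 and Notch1 was not tested.

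Jag1, the Jagged ligand, had 15.6, 12.2, 16.4 and 10 CPM in BF BSHlow non-tumor tissues and 15.2, 23.1, 21.7 and 15.2 CPM in the tumors. In BF BSHhigh mice it had 13.2 to 15.7 CPM in non-tumor tissues and 13.8 to 15.9 CPM in tumors. The libraries overlapped in both groups, and the differences were 0.45 ± 0.17 (adjusted p = 0.0266) and 0.07 ± 0.18 (adjusted p = 0.760; 2 SE either side, -0.29 to 0.43).

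**Figure D2:**
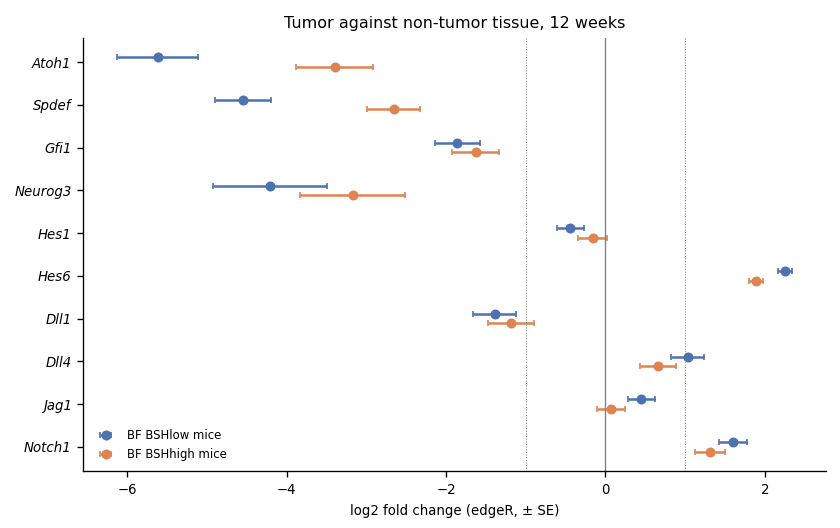
Log2 fold change of each member, tumor against non-tumor tissue after 12 weeks, with its SE from edgeR, for BF BSHlow (blue) and BF BSHhigh (orange) mice; dotted lines mark an absolute log2 fold change of 1. Atoh1 is at -5.62 and -3.40 and Hes6 at 2.25 and 1.89, while Hes1 and Jag1 lie within the dotted lines.

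Other genes of the pathway were given from lists of 45 genes (ligands and receptors, processing and modifiers, nuclear factors and targets). These lists were chosen with earlier results of these data known. In BF BSHlow mice 9 of 41 tested were higher in tumors and 3 lower, where 16.7% and 19.5% of all genes were. In BF BSHhigh mice also 9 were higher and 3 lower, against 14.6% and 14.8%. The ligand Jag2 rose by 3.33 ± 0.27 (log2; adjusted p = 1.38e-07) in BF BSHlow and by 2.57 ± 0.27 (adjusted p = 4.10e-06) in BF BSHhigh mice, from between 2.45 and 4.26 CPM to between 27.4 and 42.6 CPM in the former. The receptor Notch3, a gene of pericytes and smooth muscle, rose by 2.01 ± 0.22 (adjusted p = 2.79e-06) in BF BSHlow mice, while 5 of 6 smooth muscle and pericyte markers were lower.

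Of the nuclear factors, the target Hey1, which is expressed in vessels, rose by 3.35 ± 0.36 (adjusted p = 2.12e-06), and the corepressors Tle3 and Tle1 rose by 1.60 ± 0.19 and 1.36 ± 0.12, while Tle4, of the same family, fell by 2.07 ± 0.34 (adjusted p = 9.49e-05). Of the processing genes, the ubiquitin ligase Neurl1a rose by 2.28 ± 0.33 (adjusted p = 3.21e-05) and the glycosyltransferase Lfng by 1.53 ± 0.14 (adjusted p = 5.03e-07). Dtx1, of the Deltex ubiquitin ligases, fell by 2.97 ± 0.58 (adjusted p = 0.000435). All of these are from BF BSHlow mice, and all of them passed both limits in the same direction in BF BSHhigh mice.

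Of 20 other tested factors of the secretory lineages, 3 were higher and 12 lower in BF BSHlow tumors (all genes, 16.7% and 19.5%). In BF BSHhigh tumors 2 were higher and 10 lower (all genes, 14.6% and 14.8%). The median was -2.13 and -1.41. Insm1, a factor of enteroendocrine cells, fell by 3.89 ± 0.44 (adjusted p = 3.38e-06), Klf4, of goblet and differentiated cells, by 3.92 ± 0.29 (adjusted p = 6.32e-08), and Cdx2, the intestinal identity factor, by 3.91 ± 0.89 (adjusted p = 0.00148) in BF BSHlow mice. Sox4, a progenitor factor that also acts in tuft and enteroendocrine cells, rose by 3.36 ± 0.15 (adjusted p = 3.85e-09), Isl1 by 2.93 ± 0.34 (adjusted p = 4.35e-06) and Sox9, of crypt progenitors, by 1.04 ± 0.18 (adjusted p = 0.000199), all in BF BSHlow mice. Cdx2 (-1.30 ± 0.83, adjusted p = 0.195) and Sox9 (0.97 ± 0.20, adjusted p = 0.000837) were not called in BF BSHhigh mice.

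**Figure D3:**
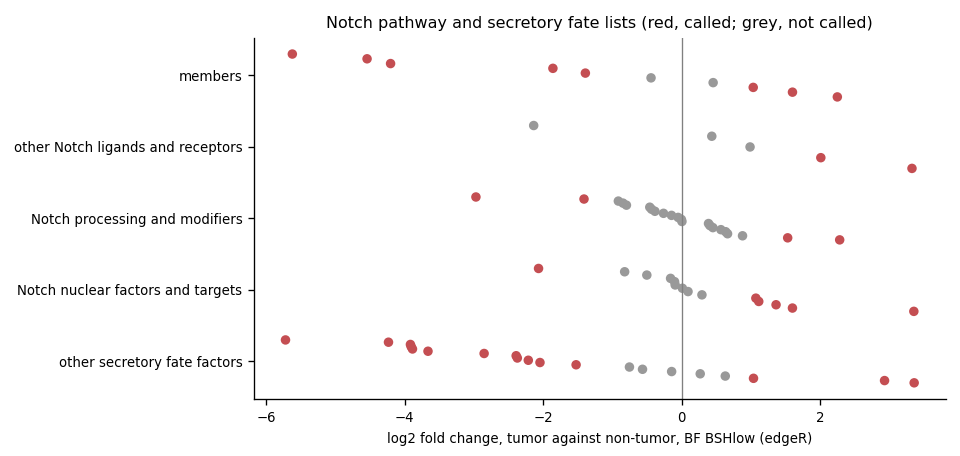
Log2 fold change, tumor against non-tumor tissue in BF BSHlow mice, of every tested gene of the members and of 4 related lists, 1 point per gene, red where called and grey where not. In the list of other secretory fate factors 12 of 20 points are called below 0 and 3 above, and of the 41 tested genes of the other Notch lists 9 are called above and 3 below.

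The cell type markers moved beside the fate factors. In BF BSHlow mice 8 of 8 goblet markers and 6 of 9 enteroendocrine markers were lower in tumors, and 1 enteroendocrine marker was higher. Of all genes 19.5% were called lower and 16.7% higher. The summed goblet level was between 13300 and 18100 CPM in non-tumor tissues and between 186 and 276 CPM in tumors. The absorptive markers, of the fate opposite to the secretory, were lower as well, 6 of 6, from between 1800 and 4550 CPM to between 54.4 and 141 CPM. Tuft markers were mixed, with Avil higher by 5.02 ± 0.38 (adjusted p = 8.32e-08) and Trpm5 lower by 2.25 ± 0.52 (adjusted p = 0.00164). The epithelium list summed to between 9550 and 12900 CPM in BF BSHlow non-tumor tissues and between 4540 and 8140 CPM in the tumors. The part of these marker levels in the values of the fate factors was not tested.

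Within tumors, BF BSHhigh was compared with BF BSHlow to see whether the bacterial enzyme bears on the members. No member was called by edgeR, where 0.463% of 15325 genes were higher and 0.0131% lower. At an unadjusted p under 0.05, 3 of 9 tested members were higher, Atoh1, Spdef and Gfi1, and none was lower, where 8.5% of all genes were higher and 4.2% lower. DESeq2, which called 3.19% of all genes higher and 0.294% lower, called 2, Atoh1 and Spdef, and limma-voom called none. Neurog3 was too low to be tested.

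Spdef was at 0.831 to 2.10 CPM in the 4 BF BSHlow tumors and at 14.8, 6.16 and 5.44 CPM in tumors a, b and c, with a difference of 2.52 ± 0.44 (log2; adjusted p = 0.0562). Atoh1 was at 0.147 to 1.59 CPM and at 10.6, 4.60 and 2.29 CPM, with 2.67 ± 0.74 (adjusted p = 0.167). Gfi1 was at 1.10 to 2.11 CPM and at 3.78, 3.93 and 2.72 CPM, with 1.10 ± 0.33 (adjusted p = 0.208). For these 3 genes no BF BSHhigh tumor overlapped a BF BSHlow tumor, and the share of all genes that separate so was not counted. When the 15 libraries of 12 weeks were fitted together the adjusted p was 0.00114 for Spdef and 0.00957 for Atoh1, in a fit that called 3.04% of all genes higher and 0.0608% lower. Without tumor a the differences were 1.92 (adjusted p = 0.152) and 1.91 (adjusted p = 0.666), and without tumor c that of Spdef was 2.77 (adjusted p = 0.0376), a call.

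Tumor a, with the highest Atoh1 and Spdef, also had the highest goblet and absorptive levels of the 7 tumors. It was highest as well in the summed epithelium (8160 CPM, against 4540 to 8140 in the others), smooth muscle and pericyte (389 against 181 to 318) and immune markers (188 against 61.6 to 155), and lowest in the sum of Axin2 and Lgr5 (226 against 299 to 410). The goblet markers summed to 5060, 1650 and 911 CPM in tumors a, b and c and to 248, 276, 258 and 186 CPM in the BF BSHlow tumors. The absorptive markers summed to 730, 227 and 152 CPM in tumors a, b and c and to 110, 141, 68.5 and 54.4 CPM in the others. In this comparison 3 of 8 goblet markers (Zg16, Fcgbp and Reg4), 2 of 6 absorptive markers, Aqp8 and Slc26a3, and 1 of 7 tested enteroendocrine markers, Chga (2.38 ± 0.35, adjusted p = 0.0421), were called higher. The enteroendocrine sum did not separate the groups, with 18.9 to 470 CPM in BF BSHlow and 56.9 to 90.2 CPM in BF BSHhigh tumors. The median log2 fold change of the 7 tested enteroendocrine markers was 2.38. Zg16, a mucus protein gene, was higher by 7.78 ± 1.11 (adjusted p = 0.0406) and Aqp8, a water channel gene of surface colonocytes, by 6.40 ± 0.92 (adjusted p = 0.0406). The part of these marker levels in the differences of Atoh1 and Spdef was not tested.

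**Figure D4:**
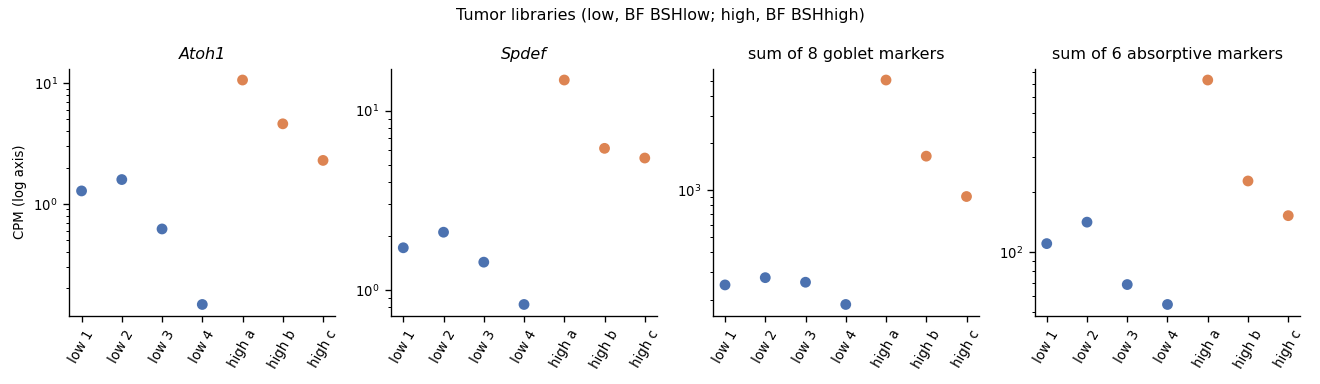
CPM on a log axis in the 7 tumor libraries, for Atoh1, Spdef, the sum of 8 goblet markers and the sum of 6 absorptive markers; blue is BF BSHlow, replicates 1 to 4, and orange is BF BSHhigh, tumors a to c. In every panel tumor a is highest and the order of the BF BSHhigh tumors is a, b, c.

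The Notch members gave no call between the tumors. Hes1 (-0.27 ± 0.13, adjusted p = 0.465), Hes6 (-0.21 ± 0.11, adjusted p = 0.505), Notch1 (-0.31 ± 0.16, adjusted p = 0.495) and Jag1 (-0.35 ± 0.18, adjusted p = 0.482) had values below 0, Dll1 was at -0.01 ± 0.23 and Dll4 at 0.01 ± 0.23, and the libraries overlapped for all 6. With 2 SE either side the interval of Dll4 was -0.46 to 0.47, and that of Notch1 was -0.64 to 0.02. None of 40 other pathway genes tested was called. At an unadjusted p under 0.05, 1 was higher and 4 lower, among them Jag2 and Notch3 (all genes, 8.5% and 4.2%).

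The interaction term tests whether the tumor contrast differs between the colonization groups, or equally whether the effect of BF BSHhigh differs between tumors and non-tumor tissues. No member was called, where 0.972% of 16455 genes were higher and 0.00608% lower. The values were 2.22 ± 0.65 (adjusted p = 0.172) for Atoh1 and 1.89 ± 0.45 (adjusted p = 0.0684) for Spdef, and -0.36 ± 0.13 (adjusted p = 0.304) for Hes6, 3 members with an unadjusted p under 0.05, where 7.36% of all genes were higher and 2.24% lower. DESeq2, which called 2.3% of all genes higher and 0.0486% lower, called Atoh1 and Spdef (adjusted p = 0.0450 and 0.00448), and limma-voom called none. Leaving out tumor c also gave both calls (2.62, adjusted p = 0.0323, and 2.16, adjusted p = 0.0179), and leaving out tumor a lowered the values to 1.49 and 1.30. The values of the other members were between -0.38 and 1.03, the highest for Neurog3 (1.03 ± 0.93, adjusted p = 0.830). Of the cell type markers, 4 of 8 goblet, 4 of 9 enteroendocrine and 4 of 6 absorptive were called higher by edgeR and 0 lower. Their part in the values of Atoh1 and Spdef was not tested.

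**Figure D5:**
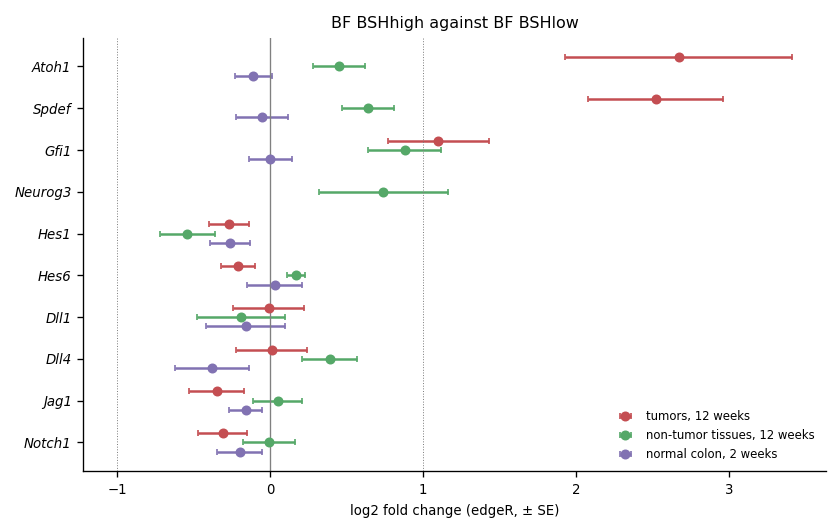
Log2 fold change of each member, BF BSHhigh against BF BSHlow, with its SE from edgeR, in tumors (red), non-tumor tissues (green) and normal colon after 2 weeks (purple); Neurog3 was tested only in non-tumor tissues. Atoh1 at 2.67 and Spdef at 2.52 in tumors lie farthest from 0, and none of the points passed both limits.

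In tissue without tumor, BF BSHhigh and BF BSHlow were compared to see whether the members differ before or beside tumor growth. In non-tumor tissues after 12 weeks no member was called, and 0% of 14934 genes were called in either direction. At an unadjusted p under 0.05, 4 members were higher (Gfi1, Spdef, Atoh1 and Hes6) and Hes1 was lower, where 5.3% of all genes were higher and 3.92% lower. Neither DESeq2 nor limma-voom called a member. Gfi1 was at 4.07 to 7.64 CPM in BF BSHlow and 8.85 to 13.9 CPM in BF BSHhigh tissues, which did not overlap (0.88 ± 0.24, adjusted p = 0.370). Hes6 did not overlap either, with 50 to 54.2 CPM against 55.2 to 62.5 CPM (0.17 ± 0.06, adjusted p = 0.503). How many of all genes separate in this way was not counted. Spdef (0.64 ± 0.17, adjusted p = 0.365), Atoh1 (0.45 ± 0.17, adjusted p = 0.486) and Hes1 (-0.54 ± 0.18, adjusted p = 0.452) overlapped. The goblet markers summed to between 13300 and 18100 CPM in BF BSHlow and between 18000 and 35700 CPM in BF BSHhigh tissues.

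In normal colon after 2 weeks no member was called by edgeR, DESeq2 or limma-voom, where 0.00727% of 13753 genes were higher and 0% lower, and no member had an unadjusted p under 0.05, where 3.83% of all genes were higher and 2.97% lower. Atoh1 was at 57.6, 41.8, 46.5 and 49.3 CPM in BF BSHlow and at 42.8, 40.9, 51.1 and 46.7 CPM in BF BSHhigh colon. Its difference was -0.11 ± 0.12 (adjusted p = 0.905; 2 SE either side, -0.34 to 0.12). The differences of the 9 tested members were between -0.38 (Dll4) and 0.03 (Hes6), and the libraries of all 9 overlapped.

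The 12-week non-tumor tissues were set against the 2-week normal colon, over both colonization groups with the group as a term, to see how the members change in tissue without tumor. Time on diet and tissue name change together here and cannot be told apart. No member passed both limits by edgeR, DESeq2 or limma-voom, where 18.4% of 15533 genes were higher and 7.94% lower. Without the fold limit 4 members were higher and 2 lower, near the 32.8% and 29.9% of all genes. Hes1 had the widest change, from 29.9, 34.9, 41.7 and 43.0 CPM to 53.9, 68.5, 76.6 and 87.0 CPM in BF BSHlow tissue, and from 27.8 to 33.9 CPM to between 38.6 and 63.3 CPM in BF BSHhigh tissue, with no overlap in either (0.80 ± 0.12, adjusted p = 2.01e-05). Dll4 (0.74 ± 0.18, adjusted p = 0.00215), Dll1 (0.63 ± 0.20, adjusted p = 0.0125) and Hes6 (0.39 ± 0.10, adjusted p = 0.00243) were also higher, and Spdef (-0.59 ± 0.15, adjusted p = 0.00275) and Jag1 (-0.33 ± 0.10, adjusted p = 0.00848) lower. Atoh1 (0.14 ± 0.13, adjusted p = 0.327), Gfi1 (0.03 ± 0.18), Notch1 (-0.10 ± 0.12) and Neurog3 (0.51 ± 0.36) did not pass.

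Other genes mark these tissues as far apart. All 6 smooth muscle and pericyte markers were higher at 12 weeks, with a median log2 fold change of 5.24, as were all 7 endothelial markers, and their part in the values of Hes1, Dll4 and the receptors was not tested. Of 40 other pathway genes tested 11 were higher and 0 lower, where 18.4% and 7.94% of all genes were. Without the fold limit 19 were higher and 9 lower, against 32.8% and 29.9%. Among those called were Notch4 (2.33 ± 0.26, adjusted p = 9.94e-07), Notch3 (1.85 ± 0.36, adjusted p = 0.000278) and Notch2 (1.81 ± 0.21, adjusted p = 1.59e-06). Cdx2 was at 307 to 418 CPM in the 2-week libraries, at 6.34 to 60.5 CPM in non-tumor tissues and at 0.257 to 27.6 CPM in tumors. Its log2 fold change from 2 to 12 weeks was -4.20 ± 0.34 (adjusted p = 3.56e-08).

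Over the 23 libraries, the genes whose rank order was most like that of Atoh1 among 14399 genes of at least 1 CPM were Fer1l6 (Spearman's rho 0.926), Hgfac (0.925), Galnt7 (0.921), Camk2n1 (0.916) and Galnt10 (0.911). Those most like Notch1 were Baz1b (0.931), Fbxw8 (0.919), Setdb1 (0.910), Arid1a (0.908) and Khsrp (0.907), and those most like Hes1 were Ube2r2 (0.880), Spata13 (0.872), Srsf4 (0.871), Zfp775 (0.868) and Ankrd10 (0.868). The libraries share tissue, time and scaling, so these values describe the pattern over the 6 groups. Among the 9 members that reached 1 CPM, all but Neurog3, Hes6 and Dll4 were most alike (0.89) and Spdef and Hes6 most opposed (-0.73).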

How the data were processed

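RNA-seq was analysed in 23 libraries of mouse colon. Per the labels and the methods of the study, the authors used Cutadapt for trimming, STAR for alignment to mm10, and Picard, and the deposited values are expected counts from RSEM with no normalization; versions are not given in the sources used here. The methods give a stranded mRNA preparation and gavage every few days, the labels a total RNA preparation and colonization 2 times a week, and the strand setting of the counting is not stated, so that the overlaps with antisense genes named above make those values uncertain. The labels number the replicates, and the study calls them independent samples. It also calls the sample sizes pooled, and whether a sample holds tissue of several animals is not stated. Nothing names the animal of each sample, so that p-values measure the spread between these samples. Columns of the BF BSHhigh tumors carry names of BF BSHlow tumors and were assigned as a group through a supplementary data table of the study. A row holding text and a row without a name were left out. Replicate pairs differed beyond counting noise in all 33 pairs (chi-square per degree of freedom 16.6 or more).

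Counts were rounded and tested in R 4.3.3 with edgeR 4.0.16 (TMM, filterByExpr, prior count 2 for log2 CPM). Fits of BF BSHhigh against BF BSHlow held the groups compared, those of tumor against non-tumor tissues the 15 libraries of 12 weeks. An SE is the log2 fold change divided by the root of F. CPM were scaled by TMM over all 23 libraries, and exonic lengths are the union of GENCODE M21 exons, whose IDs and symbols matched all 55449 genes. Members, lists and tests were chosen with earlier results of these data known. The genes named are the members and, from each list, the called genes of largest change, at most 3 in each direction, whose libraries did not overlap between groups and whose mean reached 1 CPM. Not every gene that this rule names is reported here. Alternatives were DESeq2 1.42.0, limma-voom (limma 3.58.1), RLE and library size scaling, no filter, CPM over 1 in 3 libraries, no fold limit, wider or narrower fits, blocking on the replicate number, and dropping 1 library at a time. Fits were also run on simulated counts with log2 changes of 2 or 3 and the same spread for every gene. The interaction and the tumor contrast of BF BSHhigh mice were not simulated. The limit set there on false calls did not cover DESeq2. Tables and figures were made in Python 3.11.15 with pandas 2.3.3 and scipy 1.17.1.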

Additional observations from a re-analysis of the deposited data

Results flagged for a closer look

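Of the Neurog3 levels in the 4 BF BSHlow normal colons after 2 weeks, that of replicate 2, 1.58 CPM from 19 counts, stood apart from the other 3, which were at 0.422 to 0.474 CPM. Its gap to the nearest library was 0.921 of the range on the log2 scale, above Dixon's limit for 4 libraries. Chance alone passes that limit in about 1 of 20 groups, and 50 groups were looked at.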

How the results depend on the processing

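The 8 calls in BF BSHlow and 7 calls in BF BSHhigh tumors against non-tumor tissues kept their direction under every alternative run. Calls were lost for Dll4 in BF BSHlow mice without 1 library (0.83 to 0.97) and for Dll1 in BF BSHhigh mice with library size scaling (-0.89, adjusted p = 0.0251). Library size scaling moved the median log2 fold change of all genes up by 0.332, 0.304 and 0.258 in BF BSHlow, BF BSHhigh and the time comparison, and with it the split of calls, to 3999 higher and 2510 lower, 3534 and 1807, and 3342 and 897. Under it Hes1 in BF BSHhigh was at 0.139, Notch1 over time at 0.154, Hes6 at 2 weeks at -0.026, and 1 member, Hes1, was called higher over time. The members called higher in tumors of BF BSHhigh against BF BSHlow numbered 2 with DESeq2, 1 without a filter, 2 in the fit of 15 libraries and 0 to 1 without a library, and in the interaction 2 with DESeq2 and 0 to 2 without a library. Without the fold limit 4 members were higher and 2 lower over time, where 32.8% and 29.9% of all genes were. The causes were not tested.

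Values near 0 changed sign: in tumors Dll1 with limma-voom (0.012), no filter (0.002) and 15 libraries (0.004), and Notch1 in non-tumor tissues with limma-voom (0.002). Without a library Dll1 in tumors ran from -0.11 to 0.12, Dll4 from -0.16 to 0.20, Jag1 in non-tumor tissues from -0.071 to 0.15, Notch1 there from -0.13 to 0.12, at 2 weeks Spdef from -0.19 to 0.059, Gfi1 from -0.061 to 0.051, Hes6 from -0.069 to 0.17 and Dll1 from -0.43 to 0.01, and Gfi1 over time from -0.075 to 0.13.

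Deviations of same-numbered libraries from their group means had correlations of -0.142 to 0.26. With so few libraries in a group these values cannot show whether a number marks an animal. The BF BSHhigh tumors were not in this check. With a replicate block 3 members were higher and 4 lower in BF BSHlow tumors, Neurog3 being too low to be tested, 0 were called in non-tumor tissues and 0 in normal colon. Depth limits Neurog3, with at most 5 counts in a tumor.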
